A study of Mus musculus with 6 samples.

Results

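The 9 genes described here, Prkca, Prkcd, Prkce, Prkch, Prkci, Prkcz, Prkd1, Prkd2 and Prkd3, encode isoforms of protein kinase C (PKC) and protein kinase D (PKD). They were taken by gene symbol and comprise the kinases on which the phorbol ester PMA acts together with their atypical relatives. Each symbol had 1 row among the 25001 loci of the 6 libraries. Of the 9 genes, 8 had a mean of 1 FPKM or more (fragments per kilobase, normalised for depth) over the libraries, as did 9902 of 21207 annotated genes. Prkd1 was listed at 0 FPKM in all 6 libraries. With PMA, Prkcd rose and Prkcz fell in a test over both cell lines. The other 6 genes with a mean of 1 FPKM or more did not pass it. Of all 9902 genes 29.1% passed, so 2 of 8 members is near that share. Neither member passed when all genes with a mean of 0.1 FPKM or more were tested.

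PKC isoforms are serine and threonine kinases that fall into classes by the signals that switch them on. The conventional isoforms (cPKC), here Prkca, respond to calcium and diacylglycerol, and the calcium-independent isoforms (nPKC), here Prkcd, Prkce and Prkch, respond to diacylglycerol alone. PMA takes the place of diacylglycerol at the C1 domains of both classes and holds the kinases at membranes. The atypical isoforms (aPKC), Prkci and Prkcz, bind neither diacylglycerol nor phorbol ester and work through partners such as the PAR6 proteins in cell polarity. The PKD kinases carry C1 domains of their own and are activated by nPKC isoforms. Activation of PKC by PMA is a standard means to induce ectodomain shedding, the release of the outer part of a membrane protein.

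The libraries came from 427.1.86 cells, a mouse thymoma cell line, at passage 4-10, with 1 library for each of 6 conditions. The 427 cells stably carried the pSUPER vector and were given DMSO or 1 µM PMA for 2 h after 2 h without serum, and cells labelled SPPL2b KD were given DMSO or PMA in the same way. SPPL2b is an intramembrane protease that was examined for the release of the intracellular domain (EICD) of the membrane protease epithin/PRSS14. The other libraries came from SPPL2b KD cells transfected with GFP alone or with GFP and EICD, as residues 1 to 55 of epithin/PRSS14 with a Flag tag, and sorted for GFP. The GFP libraries are from 1 clone, the labels give no clone for the SPPL2b KD cells with DMSO or PMA, and the labels give an siRNA for all of these libraries where the methods give a stable shRNA. There is no replicate of any condition, so a difference between libraries has no replicate check and is given with a 95% counting interval from estimated fragments, which covers counting error only.

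Depth estimated from the steps of the lowest values was 25500000 to 28700000 fragments per library, and 10555 to 10873 loci reached 1 FPKM. The 10 loci with the largest FPKM held 85.6 to 94.2% of the FPKM sum. All 7 epithelial markers in the files were at 41.2 FPKM or more in every library, with a summed level of 2720 to 4505 FPKM. None of 6 T lymphocyte markers reached 1 FPKM, their summed level was 0.0304 to 0.340 FPKM, and Cd3e and Cd4 were listed at 0, so the libraries of this thymoma line carry epithelial and not T lymphocyte markers. Of 3 myeloid markers, Csf1r and Cd68 were above 1 FPKM (sum 4.42 to 8.66 FPKM) and Adgre1 was listed at 0, while fibroblast and B lymphocyte markers summed to at most 0.468 FPKM in each library. Sppl2b, the target of the knockdown, was at 9.90 FPKM in 427 cells with DMSO, 6.86 with PMA, 13.4 and 9.37 in the libraries labelled SPPL2b KD with DMSO and PMA, 11.4 with GFP and 13.2 with GFP and EICD. It was not lower in the libraries labelled SPPL2b KD, which goes against the label. The paper measured SPPL2b mRNA in the knockdown clones by qPCR, normalised to GAPDH, and describes these clones as SPPL2b knockdown lines. It also reports less PMA-induced EICD in those clones. Its locus in the files overlaps that of Lsm7 (33.6 to 74.3 FPKM) on the opposite strand, but the annotation gives it 0 exonic bases shared with another gene. Differences between the lines are therefore differences between libraries so labelled.

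The order of the levels was led by an atypical and a PKD isoform. Prkci, the atypical isoform PKCι, had the highest FPKM of the 9 genes in every library, with 69.9 in 427 cells with DMSO, 65.7 with PMA, 69.4 and 65.6 in SPPL2b KD cells with DMSO and PMA, 71.7 with GFP and 71.0 with GFP and EICD. Its highest value was 1.09 times its lowest, and its mean exceeded that of 86.8% of the 9902 genes. Prkd3, the PKD isoform PKD3, was at 32.2, 31.0, 37.8, 38.7, 32.1 and 34.7 FPKM in the same order of libraries, a range of 1.25 times. The next gene was Prkcd, the nPKC isoform PKCδ, with a mean of 30.3 FPKM. Prkcd and Prkd3 exchanged ranks between libraries, with Prkcd second in both PMA libraries and Prkd3 second in the other 4. Prkch (mean 7.77 FPKM), Prkca (7.73), Prkcz (7.71) and Prkd2 (7.01) followed close together, ranked between 4 and 7 in an order that differed among libraries, so their means do not order them beyond their spread over conditions. Prkce, the nPKC isoform PKCε, was the lowest gene listed above 0 in every library, at 1.69 to 3.50 FPKM, and its mean exceeded that of 7.62% of the genes.

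On GRCm38 the deposited loci are on 7 chromosomes. Prkci lies at chr3:30995747-31052959 (plus strand), Prkcz at chr4:155260129-155361425 (minus), Prkd2 at chr7:16842902-16870464 (plus) and Prkca at chr11:107933387-108343928 (minus). Prkch at chr12:73584797-73778185 (plus) and Prkd1 at chr12:50341231-50649223 (minus) share a chromosome, as do Prkce at chr17:86167785-86657919 (plus) and Prkd3 at chr17:78949384-79020869 (minus), and Prkcd lies at chr14:30595356-30626214 (minus). Only the loci of Prkca and Prkce overlap another locus of the files, and those, Apoh and Gm10309, reached at most 0.215 and 0.0607 FPKM. The values rest on an estimated 303 to 582 fragments for Prkce, the lowest of the 8, and 8423 to 8906 for Prkci, the highest.

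**Figure D1:**
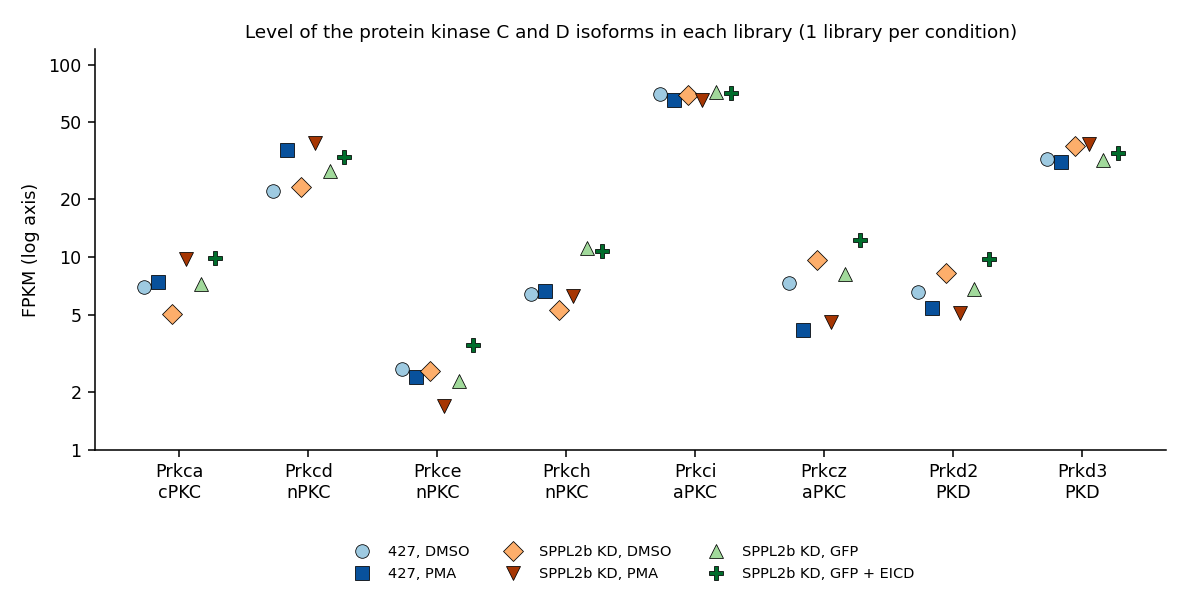
FPKM on a log axis of the 8 isoforms listed above 0, with 1 symbol per library and the class of each isoform below its name; Prkd1 was listed at 0 and is not drawn. Prkci stays between 65.6 and 71.7 FPKM, Prkcd is highest in both PMA libraries, Prkcz is lowest in them, and Prkch is highest in both GFP-sorted libraries.

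Isoforms listed at or near 0 belonged to several classes. Beside Prkd1, which encodes PKD1, the conventional isoform Prkcb was listed at 0 in 4 libraries and reached 0.0573 FPKM with GFP and EICD. Prkcq, the nPKC isoform known from T cells, was at 0.0603 to 0.2497 FPKM. Prkca was thus the conventional isoform with the highest level of those listed, and cPKC made up 3.15 to 5.73% of the FPKM summed over the 9 genes. The nPKC isoforms made up 19.3 to 28.3% of this sum, the atypical isoforms 41.1 to 50.1% and the PKD isoforms 23.0 to 28.6%. Within the cPKC and nPKC isoforms, the classes that PMA binds directly among PKCs, Prkcd alone held 57.7 to 68.9% of the FPKM. Between the atypical isoforms Prkci was at 5.75 to 15.7 times the FPKM of Prkcz.

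**Figure D2:**
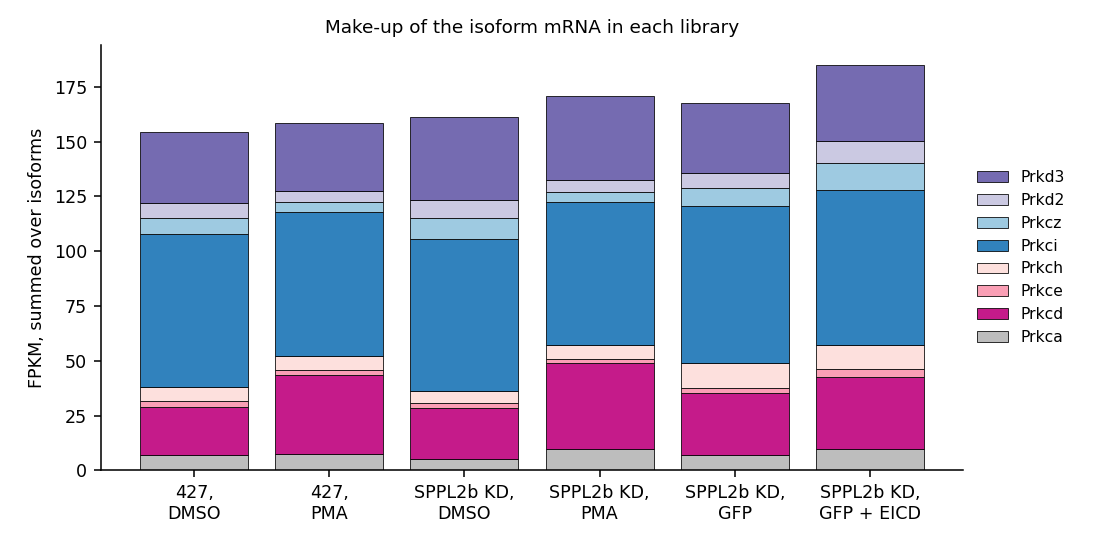
Stacked FPKM of the 8 isoforms listed above 0 in each of the 6 libraries, with 1 colour per isoform. Prkci is the largest block in every bar, at 38.4 to 45.4% of the sum, and the Prkcd block is taller in both PMA bars than in the DMSO bar of the same line.

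The first comparison asked which genes differ with PMA in 427 cells. Prkcd was at 22.1 FPKM with DMSO and 35.9 with PMA, 1.63-fold higher (log2 ratio 0.70, counting interval 0.61 to 0.79). In bulk RNA of this kind, more cells expressing a gene and more RNA per cell cannot be told apart. Prkcz, the atypical isoform PKCζ, was at 7.31 and 4.18 FPKM, 1.75-fold lower (-0.80, -0.97 to -0.64). No member passed 2-fold, while 7.83% of the 9902 genes did. At 1.5-fold, 1 of 8 members was higher (Prkcd), against 7.6% of all genes, and 1 was lower (Prkcz), against 14.0%. Prkd2, which encodes PKD2, had a log2 ratio of -0.28 (-0.44 to -0.11). The counting intervals of Prkca (0.08), Prkce (-0.14), Prkch (0.06) and Prkd3 (-0.06) reached past 0, and that of Prkci (-0.09, -0.13 to -0.05) did not, although its sign turned with median ratio scaling (0.03). The median over members was -0.07, beside -0.11 over all genes.

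In SPPL2b KD cells the same comparison gave larger differences for several members. Prkcz was at 9.60 FPKM with DMSO and 4.63 with PMA, 2.07-fold lower (log2 ratio -1.05, counting interval -1.20 to -0.90). Prkca was at 5.08 and 9.79 FPKM, 1.92-fold higher (0.94, 0.84 to 1.05). Prkcd was at 23.2 and 39.2 FPKM, 1.69-fold higher (0.76, 0.67 to 0.84), which is close to its ratio in 427 cells. Prkcz was the 1 member past 2-fold, against 8.46% of all genes. With each library scaled by its median ratio to the mean library, Prkcz was at -0.92 and Prkca at 1.08, so that the count stayed at 1 with Prkca in place of Prkcz. At 1.5-fold, 2 members were higher (Prkca and Prkcd), against 7.67% of all genes. The 3 members lower by as much, against 15.8% of all genes, were Prkcz, Prkd2 (8.31 to 5.10 FPKM, -0.70) and Prkce (2.55 to 1.69 FPKM, -0.59). Prkch (0.24) and Prkd3 (0.03) had small positive ratios and Prkci (-0.08) a small negative one. The median over members was -0.02, beside -0.14 over all genes.

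**Figure D3:**
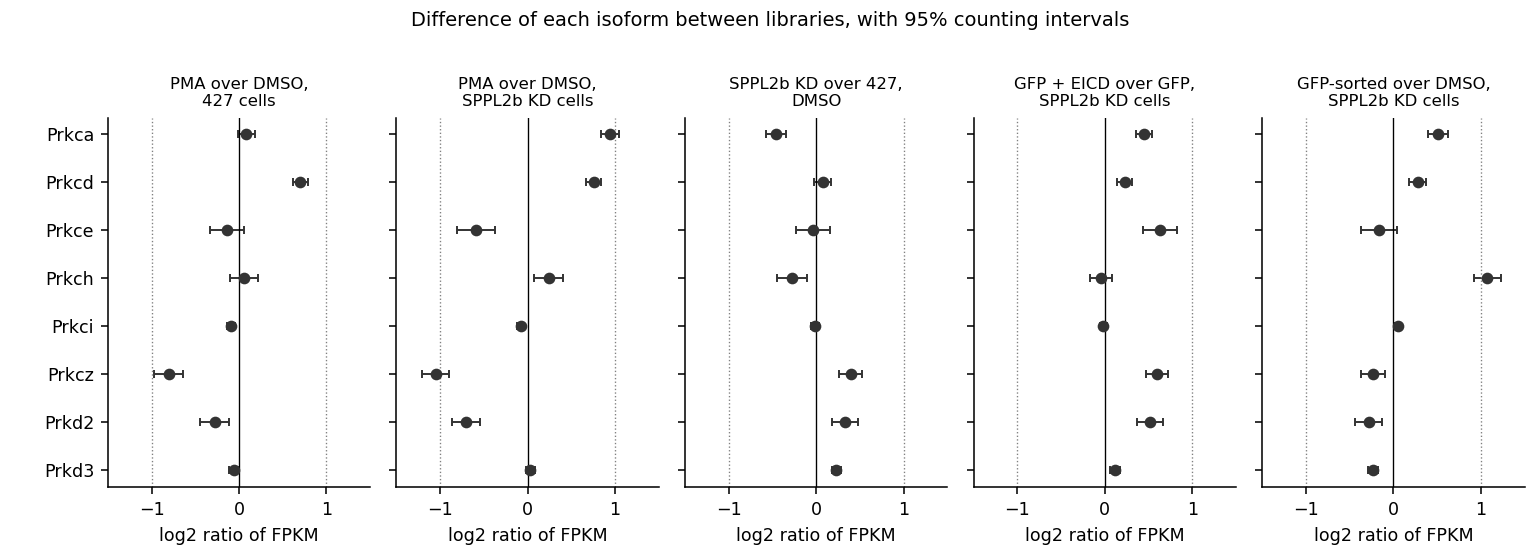
Log2 ratio of FPKM of the 8 isoforms in 5 comparisons, 1 panel each, with bars for the 95% counting interval and dotted lines at 2-fold. Prkcd lies right of 0 and Prkcz left of 0 in both PMA panels, Prkca lies near 1 in 1 of them only, and Prkch lies past 1 in the panel of GFP-sorted over DMSO cells.

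A limma fit of line and PMA was run on the 4 libraries with DMSO or PMA. Its spread is the disagreement of the PMA effect between the lines, drawn by moderation toward the spread of all genes tested. Of 3.68 degrees of freedom in total, 1 comes from the gene itself. The fit tests a difference shared by both lines and not one within a line. With 1 residual degree of freedom before moderation, it called Prkcd higher with PMA by 0.73 on the log2 scale (95% confidence interval 0.48 to 0.98, limma adjusted p = 0.019). It called Prkcz lower, with a log2 change of -0.93 (-1.24 to -0.62, limma adjusted p = 0.018). These were 1 of 8 members higher, where 8.73% of the genes were, and 1 of 8 lower, where 20.4% were. The adjusted p over the alternative settings lay between 0.00585 and 0.081 for Prkcd and between 0.00866 and 0.081 for Prkcz. Prkd2 had a change of -0.49 (-0.89 to -0.09) with a limma adjusted p of 0.075, and Prkca one of 0.51 (-0.17 to 1.20) with 0.184. For Prkce, Prkch, Prkci and Prkd3 the limma adjusted p was 0.142 to 0.935. Of the 7 epithelial markers, 6 had a higher FPKM with PMA in both lines (Cldn4 125 to 553 in 427 and 104 to 320 in SPPL2b KD cells) and Krt14 a lower one, and their part in these results was not tested. Over all genes, 864 were higher and 2016 lower. With median ratio scaling, which moved the median ratio of all genes by 0.12 in 427 cells and 0.14 in SPPL2b KD cells, 1140 were higher and 1146 lower. Prkcd and Prkcz kept their calls under that scaling, while the log2 ratios of Prkci in both lines and of Prkd3 in 427 cells turned positive (0.03, 0.06 and 0.06).

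**Figure D4:**
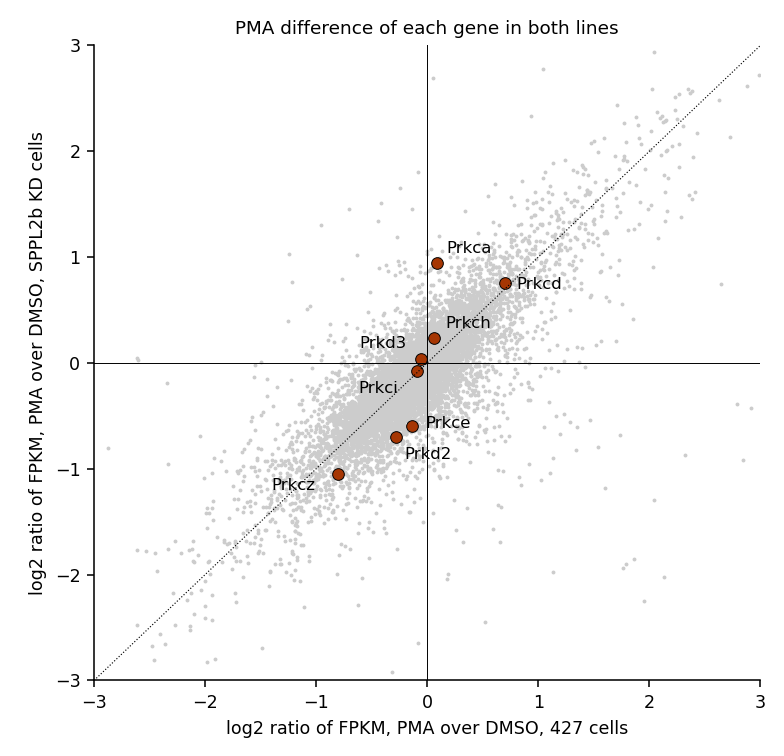
Log2 ratio of FPKM with PMA over DMSO in 427 cells (x axis) and SPPL2b KD cells (y axis) for the 9902 genes with a mean of 1 FPKM or more (grey, with 63 genes beyond the axes) and for the 8 isoforms (red); the dotted line marks equal ratios. Prkcd and Prkcz lie near the line on opposite sides of 0, and Prkca lies above it.

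The PMA ratio of each member can be set side by side in the lines, without a test, since the lines have 1 library per treatment. Prkcd differed between them by 0.05, Prkci by 0.01, Prkd3 by 0.09 and Prkch by 0.18 on the log2 scale. Prkca had the largest gap, 0.86 higher in SPPL2b KD than in 427 cells, and 3.25% of the 9902 genes had a gap of at least this size in either direction. Its 2 DMSO libraries stood at 6.98 and 5.08 FPKM and its 2 PMA libraries at 7.41 and 9.79 FPKM. The gap thus holds a lower DMSO level and a higher PMA level in the SPPL2b KD cells. The gaps of Prkce (-0.46), Prkd2 (-0.42) and Prkcz (-0.25) were reached or passed by 12.3%, 14.0% and 31.0% of the genes.

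The 250 bases before the transcription start site are shown for 3 members, as the member called higher with PMA, the member called lower, and the member with the highest and steadiest level. They are RefSeq windows on GRCm38.p6, written 5′ to 3′ on the strand of the gene, with GC boxes (GGGCGG on either strand), the sequence bound by Sp1-type factors, in capitals.
Prkcd, chr14:30626209-30626458 (minus strand): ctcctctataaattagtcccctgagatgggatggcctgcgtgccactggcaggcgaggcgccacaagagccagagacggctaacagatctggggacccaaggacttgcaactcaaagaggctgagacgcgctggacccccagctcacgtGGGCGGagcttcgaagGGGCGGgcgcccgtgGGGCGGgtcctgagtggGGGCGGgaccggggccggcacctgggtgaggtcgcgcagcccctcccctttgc
Prkcz, chr4:155361429-155361678 (minus strand): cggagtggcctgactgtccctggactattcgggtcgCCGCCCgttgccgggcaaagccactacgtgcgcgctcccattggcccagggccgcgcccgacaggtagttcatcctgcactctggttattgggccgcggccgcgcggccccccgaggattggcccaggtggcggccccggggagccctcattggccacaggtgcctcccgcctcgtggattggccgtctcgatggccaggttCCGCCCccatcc
Prkci, chr3:30995521-30995770 (plus strand): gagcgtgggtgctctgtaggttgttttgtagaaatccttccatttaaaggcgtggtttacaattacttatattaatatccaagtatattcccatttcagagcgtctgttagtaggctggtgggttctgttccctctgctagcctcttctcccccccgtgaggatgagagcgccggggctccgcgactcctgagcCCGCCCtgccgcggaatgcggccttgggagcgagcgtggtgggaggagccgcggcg
The Prkcd window shown holds 4 GC boxes, that of Prkcz 2 and that of Prkci 1. Windows at other starts, not shown, hold 0 for Prkcd and 0 and 2 for Prkcz. RefSeq windows were at hand for 7 of the 9 genes, 12 windows in all with alternative starts, of which those of Prkd2 overlap. A GC box lay in 9 of the 12, beside 32.7% of 32851 windows of all genes. The windows shown for Prkcd, Prkcz and Prkci hold 67.6, 70.8 and 56.4% GC, beside a median of 52.4% over all windows. The part of GC content in the GC box count was not tested. None of the 12 held an AP-1 element (TGANTCA, in 6.75% of all windows), a CRE (TGACGTCA, 1.55%) or an EGR element (GCGTGGGCG, 0.536%), elements of factors known to respond to PMA. These letters are a description of 250 bases and say nothing of other regulatory sequence of the genes.

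Between the lines with DMSO, no member passed 2-fold, against 4.8% of the genes. None was 1.5-fold higher or lower either, against 7.42% and 5.7% of the genes. Prkca had the largest ratio in size, with 6.98 FPKM in 427 and 5.08 in SPPL2b KD cells (log2 -0.46, counting interval -0.57 to -0.34). Prkcz (7.31 and 9.60 FPKM, 0.39), Prkd2 (6.61 and 8.31 FPKM, 0.33) and Prkd3 (32.2 and 37.8 FPKM, 0.23) were higher in the SPPL2b KD library. With PMA the ratio of the lines was 0.40 for Prkca, 0.15 for Prkcz, -0.09 for Prkd2 and 0.32 for Prkd3. In the limma fit no member was called for line, where 1.99% of the genes were called higher and 2.0% lower. The lowest limma p for line among the members was that of Prkd3, which was not called (change 0.27, unadjusted p = 0.041, limma adjusted p = 0.151). Line and knockdown cannot be told apart, and this comparison shares its DMSO libraries with both PMA comparisons.

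The comparison of GFP and EICD with GFP alone asked what EICD does in SPPL2b KD cells. Prkce was at 2.27 FPKM with GFP and 3.50 with GFP and EICD, 1.54-fold higher (log2 ratio 0.63, counting interval 0.44 to 0.82), on an estimated 362 and 582 fragments. Prkcz was at 8.18 and 12.3 FPKM, 1.51-fold higher (0.59, 0.47 to 0.72). Prkd2 was at 6.84 and 9.76 FPKM (0.51, 0.37 to 0.66) and Prkca at 7.23 and 9.87 FPKM (0.45, 0.36 to 0.54). No member passed 2-fold, against 3.25% of 9895 genes. At 1.5-fold, 2 members were higher, against 9.37%, and none was lower, against 2.56%. Prkcd (28.2 and 33.0 FPKM, 0.23) and Prkd3 (0.11) had smaller positive ratios, and the intervals of Prkch (-0.05) and Prkci (-0.02) reached past 0. Of the 8 members 6 were above 0, as were 57.7% of the genes, and their median was 0.34 beside 0.06 over all genes. Of the 7 epithelial markers 5 were lower with EICD, among them Krt8 (143 to 70.2 FPKM) and Krt14 (3820 to 2456 FPKM). The 2 higher ones were Cdh1 (147 to 156 FPKM) and St14 (69.6 to 614.5 FPKM). St14 encodes epithin/PRSS14, so transfected EICD sequence and the cells' own St14 RNA cannot be told apart in that value. The part of the markers in these differences was not tested. There is no test of these differences, as each library stands alone.

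Prkce, Prkcz and Prkd2 had their highest FPKM of the 6 libraries with GFP and EICD (3.50, 12.3 and 9.76), and their lowest was in a PMA library (1.69, 4.18 and 5.10). The share of all genes with their highest and lowest FPKM in these libraries was not counted. The pattern therefore cannot be called particular to these members. Shares of single comparisons, given next, do not measure it. Of all genes, 37.23% had a PMA ratio above 0 in 427 cells and 35.85% in SPPL2b KD cells, and 57.74% had an EICD ratio above 0. The PMA and EICD comparisons share no library. For Prkca, the GFP and EICD library (9.87 FPKM) and the SPPL2b KD library with PMA (9.79 FPKM) were the highest, while 427 cells with PMA (7.41 FPKM) were close to the GFP library (7.23 FPKM).

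Prkch, the nPKC isoform PKCη known from epithelia, had a higher FPKM in the sorted than in the unsorted libraries. It was at 6.40 and 6.67 FPKM in 427 cells with DMSO and PMA and at 5.30 and 6.26 in SPPL2b KD cells, while the GFP library had 11.2 and the GFP and EICD library 10.8. All 4 unsorted libraries lay below both sorted ones, and the share of all genes that do so was not counted. This separation therefore cannot be called particular to Prkch. From SPPL2b KD cells with DMSO to the GFP library it was 2.11-fold higher (log2 ratio 1.07, counting interval 0.92 to 1.23), the 1 member past 2-fold, against 6.38% of the genes. It was also the 1 member 1.5-fold higher, against 7.68%, and none was 1.5-fold lower, against 10.6%. Prkca (0.51) and Prkcd (0.28) had positive ratios in this comparison, and Prkd2 (-0.28), Prkd3 (-0.24) and Prkcz (-0.23) negative ones. Markers of cell types moved with the sort too. Of the 7 epithelial markers, 1 was higher in both sorted libraries than in any unsorted one (Krt14, 1355 to 2154 FPKM unsorted, 3820 and 2456 sorted). Krt18 (71.6 to 171 unsorted, 49.5 and 41.2 sorted) and Epcam (169 to 322 unsorted, 153 and 140 sorted) were lower in both. Cdh1, Krt8 and Cldn4 overlapped. St14 was at 81.8 to 105 FPKM unsorted, 69.6 with GFP and 614.5 with GFP and EICD, where the EICD is itself part of its sequence. Of the myeloid markers Csf1r was at 4.85 to 7.35 FPKM unsorted and 2.46 and 2.37 sorted, Cd68 at 1.25 to 1.58 and 1.96 and 2.58, and Adgre1 at 0 throughout. Their part in the Prkch difference was not tested. The sorted cells also differ in transfection, sorting, serum and DMSO, which cannot be told apart, and the comparison shares the SPPL2b KD library with DMSO with the PMA comparison of that line.

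Prkcz and Prkch had the widest ranges over the libraries, 2.95 and 2.11 times from lowest to highest, and the genes with the most similar pattern were sought for both among 2483 genes at 1 FPKM or more in every library and with a range of at least 2-fold. For Prkcz these were Stoml1 (Pearson r 0.996 of log2 FPKM, Spearman rho 1.0), Gigyf1 (0.995, 1.0) and Serinc5 (0.993, 1.0). Gigyf1 was at 31.2 FPKM in 427 cells with DMSO and 17.3 with PMA, and at 51.4 with GFP and EICD. For Prkch they were Ano1 (r 0.995, rho 1.0), a calcium-activated chloride channel gene, Mb21d2 (0.988, 0.771) and P3h2 (0.987, 0.886). Ano1 was at 11.5 to 15.6 FPKM in the unsorted libraries and at 28.3 and 25.2 in the sorted ones. With 6 libraries such values are common, as 167 candidates had an r of 0.95 or more with Prkcz and 24 with Prkch. They describe 6 libraries that share treatments and cell lines, and carry no test.

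Genes that act upstream and downstream of PKC and PKD were taken from lists by role. Of 57 such genes with a mean of 1 FPKM or more, 5 were called higher and 16 lower with PMA by limma over both lines, and 7 and 9 with median ratio scaling. All genes gave 8.73% higher and 20.4% lower, and the median log2 ratio over the lists was -0.19 in 427 and -0.20 in SPPL2b KD cells, beside -0.11 and -0.14 over all genes. None of 6 diacylglycerol kinases, which remove diacylglycerol, was called. Of 7 phospholipases C, which produce it, none was called higher and 3 lower, among them Plcd1 with a change of -0.67 (limma adjusted p = 0.022). Among 4 other receptors of diacylglycerol Chn2, a Rac GTPase-activating protein, was called lower (-0.41, limma adjusted p = 0.049), and it was not called with median ratio scaling. Chn2 was at 0.493 and 0.386 FPKM with DMSO and PMA in 427 cells and at 1.22 and 0.876 in SPPL2b KD cells. It reached a mean of 1 FPKM only through the sorted libraries (4.71 and 4.83 FPKM), so this call rests on low values. Of 13 genes of PKC maturation and dephosphorylation 1 was called higher and 3 lower, and 2 higher and 0 lower with median ratio scaling. Phlpp1, a phosphatase that dephosphorylates PKC and named after its values were seen, was the 1 called higher, with 9.85 and 16.5 FPKM in 427 cells and 10.5 and 19.1 in SPPL2b KD cells (0.81, limma adjusted p = 0.018).

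The partners of the atypical isoforms showed PMA differences of both signs within 1 gene family. Of 10 partners 1 was called higher and 2 lower, near the 8.73% and 20.4% of all genes, and all 3 encode PAR6 polarity proteins. Pard6b was at 15.1 FPKM with DMSO and 30.7 with PMA in 427 cells and at 16.8 and 29.0 in SPPL2b KD cells, a change of 0.90 (limma adjusted p = 0.018). Pard6g was at 48.5 and 22.2 FPKM and at 35.6 and 17.1 FPKM, a change of -1.10 (limma adjusted p = 0.013), and Pard6a had a change of -0.85 (limma adjusted p = 0.017). In the same cells Prkci stayed at 65.6 to 69.9 FPKM and Prkcz was called lower. Pard6a was named after its values were seen.

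Among 9 substrates and scaffolds of PKC, 2 were called higher and 3 lower, where 8.73% and 20.4% of all genes were. Akap12, a scaffold that binds PKC, was at 2.45 and 10.8 FPKM in 427 cells and at 3.42 and 8.70 in SPPL2b KD cells (1.74, limma adjusted p = 0.020). Sdc4, a syndecan that binds PKCα at focal adhesions, was at 55.4 and 144 FPKM and at 50.04 and 125 FPKM (1.35, limma adjusted p = 0.011). The 3 called lower were the adducins Add1 (-0.63) and Add3 (-0.84), which link spectrin and actin, and Prkcdbp (-0.62), which binds PKCδ. Among 8 substrates and partners of PKD, 1 was called higher and 4 lower, and 2 and 2 with median ratio scaling. The class IIa histone deacetylase gene Hdac5 was at 19.1 and 9.26 FPKM in 427 cells and at 18.5 and 8.02 in SPPL2b KD cells (-1.12, limma adjusted p = 0.014). The 1 called higher was Col4a3bp, which encodes the ceramide transporter CERT (0.81, limma adjusted p = 0.018). Its name and those of the adducins and Prkcdbp were given after their values were seen.

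**Figure D5:**
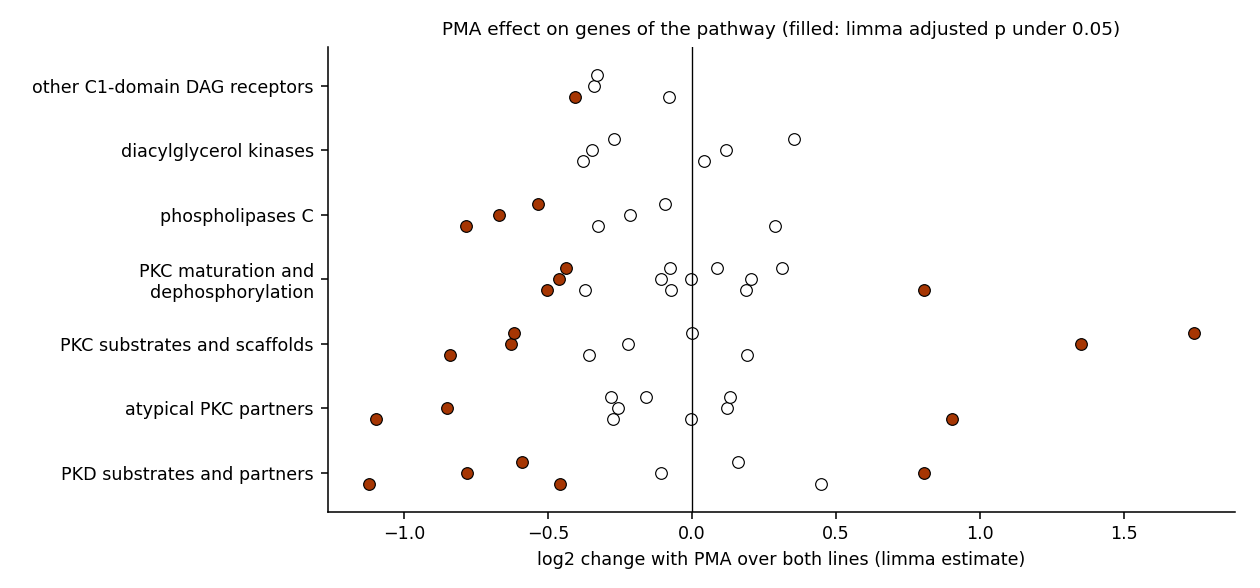
Log2 change with PMA over both lines, as estimated by limma, of the 57 genes with a mean of 1 FPKM or more in 7 lists of pathway genes, 1 point per gene with a filled point for an adjusted p under 0.05; vertical offsets within a list only separate points. The highest points are Akap12 (1.74) and Sdc4 (1.35), and the lowest are Hdac5 (-1.12) and Pard6g (-1.10).

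Of the 57 genes of the lists, 2 passed 2-fold between the lines with DMSO, 1 with EICD and 3 between GFP-sorted and DMSO cells, beside 4.8%, 3.25% and 6.38% of all genes. Between the lines with DMSO these were Chn2 (0.493 FPKM in 427 and 1.22 in SPPL2b KD cells, log2 ratio 1.29) and Plcb4 (2.35 and 5.26 FPKM, 1.16), against no member. With EICD it was Hdac4, a class IIa histone deacetylase gene and PKD substrate, at 6.20 FPKM with GFP and 14.2 with GFP and EICD (1.20), beside 0.51 for Prkd2 and 0.11 for Prkd3. From SPPL2b KD cells with DMSO to the GFP library these were Chn2 (1.94), Plch2 (1.19) and Plcd1 (1.01), beside Prkch at 1.07 among the members. Chn2 and Prkch were thus both highest in the 2 sorted libraries, with Chn2 at 4.71 and 4.83 FPKM. Chn2 reached a mean of 1 FPKM only through these 2 libraries, so its high level there was part of its selection.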

How the data were processed

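RNA was sequenced as paired-end reads in 6 libraries, grouped by their labels. Per the submitters' processing notes, the authors used TopHat2 2.1.1, Cufflinks 2.1.1 and Cuffdiff 2.1.1 with GRCm38 (STAR 2.4.0b is also named), and the deposited files give each locus an FPKM for each library. Fragment counts were not used here. Genes with a mean FPKM of 1 or more over the libraries were compared as log2(FPKM + 0.01); for EICD, 0.01 was added to the EICD library only, at a GFP value of 0.01 FPKM or more. Adding 0.01 slightly understates differences of low genes. limma 3.58.1 fitted line and PMA on 4 libraries, with Benjamini-Hochberg adjustment over 9902 genes and a threshold of 0.05. On simulated data for these 9902 genes it called 94.5% of 200 genes changed 2-fold among 3000 other changed genes, and 3.05% of its calls were false. With 200 genes changed 8-fold and 0 others changed, it called 98.5% of them, and 5.29% of its calls were false. The noise of both simulations was set by hand and they held no line effect, so these values do not measure the spread of the 6 libraries. Depth was estimated from the lowest FPKM, and fragments from the longest annotated transcript are upper estimates, so counting intervals (Clopper-Pearson) are too narrow. Named genes were all members, Sppl2b, Prkcb and Prkcq, at most 2 higher and 2 lower genes past 2-fold per list and comparison, and the 3 genes most like the 2 most variable members; some results under this rule are not reported here. The members and lists were chosen with earlier results of these data known. Alternatives were other added amounts, filters, scalings, folds and limma settings. Python 3.11.15, pandas 2.3.3, SciPy 1.17.1 and R 4.3.3 were used.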

Additional observations from a re-analysis of the deposited data

Results flagged for a closer look

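3 members had differences of opposite sign under the same contrast, none of them tested, since each value rests on 1 library. The log2 ratio of Prkca between SPPL2b KD and 427 cells was -0.46 with DMSO and 0.40 with PMA, so that it was 0.86 higher with PMA. That of Prkd2 was 0.33 with DMSO and -0.09 with PMA, a difference of -0.42, and the counting interval of the PMA value (-0.27 to 0.08) holds 0. For Prkd3 the PMA ratio was -0.06 in 427 cells and 0.03 in SPPL2b KD cells, a difference of 0.0882, with counting intervals of -0.11 to 0.0007 and -0.02 to 0.08 that both hold 0.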

How the results depend on the processing

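Of 40 log2 ratios of members, those of Prkci with PMA in both lines and of Prkd3 with PMA in 427 cells changed sign with median ratio scaling, and none did with upper quartile scaling or with 0.1 or 1 added. At 1.5-fold in place of 2-fold, the members past the fold numbered 2 with PMA in 427 cells, 5 with PMA in SPPL2b KD cells and 2 with EICD. With 1 added, or with a mean of 10 FPKM or more, none passed 2-fold with PMA in SPPL2b KD cells or between GFP-sorted and DMSO cells (0 in each), where only 3 members have a mean of 10 FPKM. In the limma fit 1 member, Prkcd, was called over genes with a mean of 10 FPKM or more, a filter that leaves out Prkcz, and 0 over genes with a mean of 0.1 FPKM or more, where 0 of 11762 genes were called and Prkcd (0.73) and Prkcz (-0.93) had an adjusted p of 0.081. Both kept their calls with 0.1 or 1 added, with either scaling, with trend and robust estimation and with 1 FPKM or more in at least 1 library. Over all genes limma called 2880 for PMA, 3650 with trend and robust estimation and 2286 with median ratio scaling. For line it called 395, and 1137, 662 and 1 with trend and robust estimation, with 1 added and with a mean of 0.1 FPKM or more, and 610 with upper quartile scaling, and no member under any of them. The cause was not tested where a setting moved a count. No paired analysis was possible because each condition has 1 library and so no replicates to pair, while the limma fit itself compares PMA with DMSO within each line. Depth limits Prkce most, at an estimated 303 to 582 fragments per library, and the absence of replicates limits every difference.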
